A study of Drosophila melanogaster with 30 samples.

Results

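Whole-body transcriptomes of *pink1*-mutant flies from families without any flying offspring were compared with those of revertant control flies. The comparison used 10 of the 30 libraries of the series. Group 1 held 2 libraries of flies of genotype *w pink1RV*, a line in which the gene has been restored by reversion. Group 2 held 8 libraries of *w pink1B9* flies, which carry a loss-of-function deletion in *Pink1*, bred from parent pairs of which no offspring could fly. The other 20 libraries, 10 each in groups 3 and 4, came from *pink1B9* flies of parent pairs with both non-flying and flying offspring, and here they served mainly to estimate the spread between libraries. All flies were males aged 1 day on a *w* background, and each library was made from a pool of 5 whole flies. The labels do not say which parent pair a group 2 library came from, nor whether the pools of a group were separate families, so p-values measure the spread between these pools. Each genotype was 1 line, and any other genetic difference between the *pink1B9* and *pink1RV* lines cannot be told apart from the loss of Pink1. In whole flies, fewer cells of a type and less RNA per cell cannot be told apart either.

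Pink1 is a serine/threonine kinase that gathers on the surface of damaged mitochondria, where it activates the ubiquitin ligase Parkin and so marks the organelle for removal. In flies, loss of either protein is known for swollen mitochondria and wasting of the indirect flight muscle, an upturned or drooping wing posture, loss of dopaminergic neurons, and male sterility through a failure of late sperm formation. Mutations of the human genes cause recessive forms of Parkinson's disease. The comparison asks which transcripts differ between control flies and mutants of the most severely affected families.

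Total counts ranged from 26014508 to 31584679 in group 1 and from 6434252 to 24669715 in group 2, and 13182 to 13694 of the 14326 genes in the table had a count in a library. Of these genes, 13190 had enough counts to be tested. Levels are given in CPM, the count of a gene divided by its library total after scaling with the trimmed mean of M values (TMM), and they were compared between libraries within a gene. Genes were tested with the quasi-likelihood method of edgeR, p-values were adjusted after Benjamini and Hochberg across the 13190 genes, and a gene was called at an adjusted p under 0.05. The flies were males per the study. The chorion gene *Cp38*, named after its values were seen, was at 0.11 and 0.65 CPM in the controls and at no more than 0.043 CPM in group 2. Other ovary and yolk genes were read. The list summed to 71.63 and 52.3 CPM in the controls and to 26.55 to 42.42 CPM in group 2. In the controls *grk* alone was at 44.52 and 31.96 CPM. The sex of the pools was not tested from the counts.

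Before any result, the 2 controls have to be described, since they stood apart from each other in several tissues. The actin of the indirect flight muscle, *Act88F*, was at 66.8 CPM in control GC055040 and at 2929 CPM in control GC055041. The flight muscle genes *TpnC4* and *fln*, for a calcium-binding troponin C and for flightin of the thick filament, were at 16.4 and 14.3 CPM in GC055040 and at 498 and 805 CPM in GC055041. Summed over 31 sarcomere and flight muscle genes, GC055040 was at 20050 CPM and GC055041 at 56260 CPM, while group 2 ranged from 17970 to 58870 CPM with a median of 34790 CPM. The hemocyte gene *Hml* was at 28.3 CPM in GC055040 and at 199.8 CPM in GC055041. Genes of the eye went the other way, with a summed level of 18520 CPM in GC055040 and 10040 CPM in GC055041. In all, 739 of the 10811 genes with at least 5 CPM differed by more than 2-fold between the 2 controls, against a median of 457 (211 to 2785) over the 28 pairs of group 2 libraries. The highest of these, 2785 genes, separated GC055044 from GC055049. Results that hold with each control alone are therefore given apart from those that need both.

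**Figure D1:**
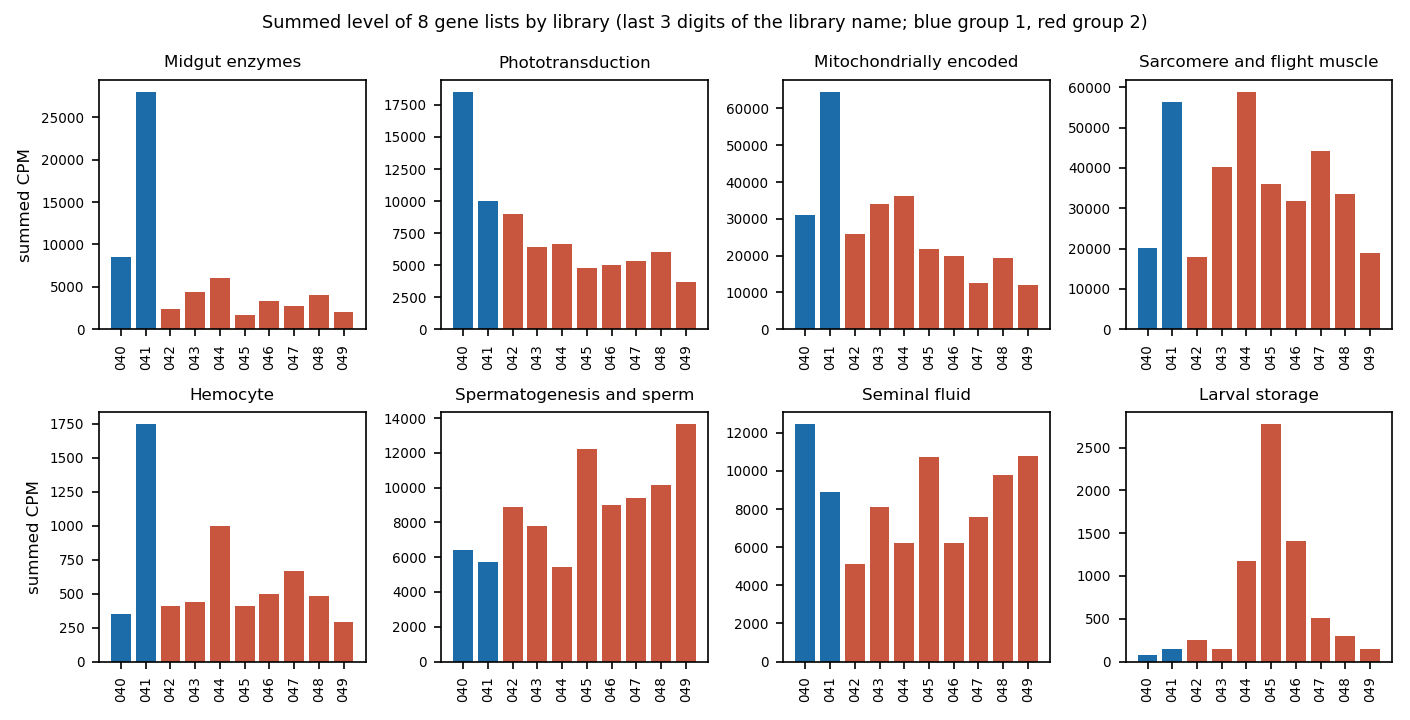
Summed level of 8 gene lists in CPM (vertical axes, each starting at 0), with a bar for each of the 2 control libraries (blue) and the 8 group 2 libraries (red). In the midgut and phototransduction panels all red bars lie below both blue bars, whereas in the muscle and hemocyte panels the 2 blue bars differ more than most red ones.

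Between groups 2 and 1, 2667 of 13190 genes passed the threshold (20.2%), of which 1411 were higher (10.7%) and 1256 lower (9.52%) in group 2. Their median absolute log2 fold change was 0.91, and 1133 genes (8.59% of those tested) also differed by more than 2-fold, 535 higher (4.06%) and 598 lower (4.53%). In 2003 called genes (15.2% of those tested) the 8 mutant libraries lay on one side of both controls. The median log2 fold change over all genes tested was at 0. The count rested on the controls: 1268 genes passed without control GC055040 (584 higher, 684 lower) and 689 without control GC055041 (292 higher, 397 lower). Leaving out a group 2 library gave between 2172 genes (without GC055049) and 3745 genes (without GC055044). With the 10 libraries of groups 1 and 2 alone 1513 genes passed, and now more were lower (813) than higher (700).

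A set of 357 genes (2.71% of those tested) was called in the same direction with all libraries and in each of the 10 fits that left out 1 library of groups 1 and 2. Of these genes 217 were higher (1.65%) and 140 lower (1.06%) in group 2, their median absolute log2 fold change was 1.49, and 291 changed by more than 2-fold. They are called the stable set below, a name for a count of fits and not for a further test. Of the 357 genes, 354 were also called in the same direction by DESeq2, limma-voom and the other fits read. The fits with a minimum of 5 CPM and without mitochondrially encoded genes were not read for this count. A gene that a fit did not test counted as not called.

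**Figure D2:**
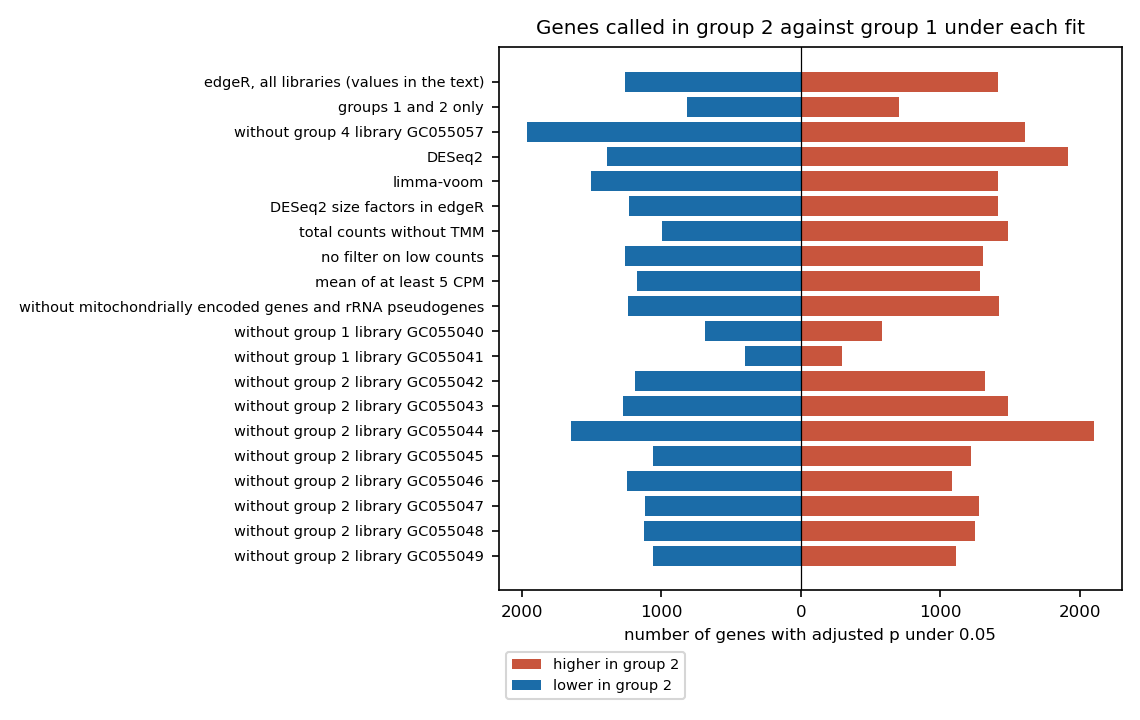
Number of genes with an adjusted p under 0.05 in each fit (horizontal axis, genes lower in group 2 to the left and genes higher to the right of 0). Leaving out a control shortened the bars most, to 1268 genes without GC055040 and 689 genes without GC055041, from 2667 genes with all libraries.

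*Pink1* (X chromosome, 6683798 to 6687302 in BDGP6.54) was at 221 and 270.5 CPM in the controls. In group 2 it ranged from 42.5 to 60.5 CPM with a median of 55.5 CPM, so that all 8 mutant libraries lay far below both controls. Its log2 fold change was −2.18 (standard error 0.16, edgeR adjusted p = 8.8e-11), and it belonged to the stable set. The transcript was thus reduced and not absent, and the counts per gene do not show which part of it remained. Of the 26 other tested genes within 100 kb of *Pink1*, 1 passed the threshold, *shf* (log2 fold change −1.02), whose call was lost without control GC055041 (edgeR adjusted p = 0.65). Within 500 kb, 9 of 109 genes passed (8.26%, against 20.2% over all genes). The share was also below that of all genes on the X chromosome as a whole (307 of 2083 genes).

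The genes of the Pink1-Parkin pathway, of mitochondrial fusion and fission and of mitochondrial quality control had a median log2 fold change of 0.14. Of 27 such genes 8 rose (29.6%, against 10.7% over all genes) and *Pink1* alone fell. The prohibitins, ring-forming scaffold proteins of the inner mitochondrial membrane, were among those that rose. *Phb2* was at 177 and 162 CPM in the controls and at 257 to 338 CPM (median 290 CPM) in group 2, without overlap (log2 fold change 0.79, standard error 0.18, edgeR adjusted p = 0.0029). *Phb1* had a log2 fold change of 0.82 (edgeR adjusted p = 0.0074), and the mitochondrial chaperone gene *Trap1* one of 0.46 (edgeR adjusted p = 0.0083). *park*, which encodes Parkin, was at 38.5 and 34.6 CPM in the controls and at 41.2 to 75.5 CPM (median 60.4 CPM) in group 2, a log2 fold change of 0.71 (standard error 0.21, edgeR adjusted p = 0.018). Its level is given because it is the partner of Pink1. None of these rises was in the stable set: without control GC055040 2 genes of the list rose, without GC055041 none, and with groups 1 and 2 alone 4. In the fit without control GC055041 *Phb2* had an edgeR adjusted p of 0.078 and *park* one of 0.20.

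The mitochondrial genome encodes core subunits of the respiratory chain. Of 12 tested genes of the mitochondrial genome 5 fell (41.7%, against 9.52% over all genes) and 1 rose, with a median log2 fold change of −0.61. *mt:CoI*, the catalytic subunit of cytochrome c oxidase, was at 14510 and 24340 CPM in the controls and at 4209 to 12440 CPM (median 6831 CPM) in group 2. All mutant libraries thus lay below both controls, with a log2 fold change of −1.30 (standard error 0.34, edgeR adjusted p = 0.0072). *mt:CoIII*, of the same complex, had a log2 fold change of −1.23 (edgeR adjusted p = 0.015), and *mt:ND5*, of complex I, one of −1.55 (edgeR adjusted p = 0.026). The gene that rose, *mt:ND4L*, was read thinly, at 11 to 97 counts per library. The sum over these genes was 31040 CPM in control GC055040 and 64510 CPM in GC055041, and in group 2 it ran from 12080 to 36290 CPM. Without GC055041 none of the 12 genes was called and their median log2 fold change was 0.07, and with groups 1 and 2 alone none was called either. Without the group 2 libraries GC055042, GC055046, GC055047, GC055048 or GC055049, 3 genes fell.

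The nuclear genes of the respiratory chain gave few calls. Of 34 complex I genes 1 fell, *ND-51*, the subunit that binds NADH (log2 fold change −0.75, edgeR adjusted p = 0.0072, 0.51 without control GC055041). Of 35 genes of complexes II to V and cytochrome c none passed in edgeR, DESeq2 or limma-voom, and 2 had an unadjusted p under 0.05 in edgeR. Without control GC055040 6 genes of complex I and 5 of the other complexes fell, and without group 2 library GC055044 2 and 1 fell. The mitochondrial ribosome gave 6 rises and no fall among 73 genes, a share of 8.22% where 10.7% of all genes rose, with a median log2 fold change of 0.24. Among them *mRpL39* was at 14.4 and 12.1 CPM in the controls and at 18.6 to 32.7 CPM with a median of 23.6 CPM in group 2 (log2 fold change 0.89, standard error 0.24, edgeR adjusted p = 0.011), and *mRpL20* had a log2 fold change of 0.72 (edgeR adjusted p = 0.0069). The count of 6 went to 2 without control GC055040 and to 0 without GC055041.

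Digestive enzymes were prominent among the largest falls. Of 49 tested genes of midgut proteases, lysozymes, maltases and amylases, which are secreted into the gut lumen to break down food and bacteria, 25 fell (51%, against 9.52% over all genes) and none rose, each of the 25 by more than 2-fold, and the median log2 fold change of the list was −2.06. The summed level was 8500 and 27990 CPM in the controls and 1663 to 6057 CPM in group 2 (median 3029 CPM), so that even the highest mutant library lay below the lower control. Without control GC055040 20 of the genes fell and without GC055041 8, and the median stayed negative, at −2.35 and −1.03.

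The lysozyme gene *LysC* (chromosome 3L, 1210485 to 1210726) was at 22.3 and 63 CPM in the controls, which are 621 and 1740 counts, and at 0 to 3 counts in each library of group 2. Its fall had the smallest p of all genes (log2 fold change −9.56, standard error 0.54, edgeR adjusted p = 3.4e-13). *Jon66Ci*, one of the Jonah serine proteases of the midgut, was at 1682 and 787 counts in the controls and at 0 to 5 counts in group 2 (log2 fold change −8.74, standard error 0.65, edgeR adjusted p = 8.8e-11). In both genes the mutant libraries were near the limit of detection, and the size of the fitted change depends on the prior count. Other members were lower but well detected. *Jon65Aiii* was at 1108 and 2665 CPM in the controls and at 66 to 247 CPM in group 2 (median 129 CPM), a log2 fold change of −3.76 (standard error 0.48, edgeR adjusted p = 4.6e-06). *LysP*, a lysozyme of the salivary gland and the neighbour of *LysC*, was at 106 and 59.9 CPM in the controls and at 17 to 37.4 CPM with a median of 20.8 CPM in group 2 (log2 fold change −1.73, edgeR adjusted p = 5.4e-06). These 4 genes, *Jon99Fi*, *Jon65Aiv* (log2 fold change −3.61), *Jon66Cii* (−5.11) and *yip7* (−3.41) formed the part of the list in the stable set.

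Copies of some of these genes are nearly identical, so that reads may be shared out among them unevenly. The other lysozyme genes of the cluster of *LysC* kept clear levels in the mutants, and their values are given because they share sequence with it. *LysB* was at 71.3 and 193 CPM in the controls and at 6.32 to 56.7 CPM with a median of 28.4 CPM in group 2. *LysD* was at 344 and 748 CPM in the controls and at 6.88 to 142 CPM with a median of 70.7 CPM in group 2. *LysE* was at 31.4 and 96.7 CPM in the controls and at 5.28 to 26.1 CPM with a median of 16.9 CPM in group 2. *LysB*, *LysD* and *LysE* lay below both controls in all mutant libraries, with log2 fold changes of −2.17, −2.85 and −2.06 (edgeR adjusted p = 0.049, 0.064 and 0.0069), and none was called without control GC055041 (adjusted p from 0.41 to 0.53). The call of *LysB*, close to the threshold, was lost in 14 of 19 alternative fits. The same caution holds for the protease pair *Jon99Fi* and *Jon99Fii*. *Jon99Fi* was at 213 and 386 CPM in the controls and at 0.42 to 12.7 CPM with a median of 2.89 CPM in group 2 (log2 fold change −5.98, standard error 1.16, edgeR adjusted p = 6.6e-04), and *Jon99Fii* at 414 and 597 CPM and at 1.05 to 137 CPM with a median of 16.2 CPM (−3.46, edgeR adjusted p = 0.016, 0.053 without control GC055040 and 0.15 without GC055041).

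**Figure D3:**
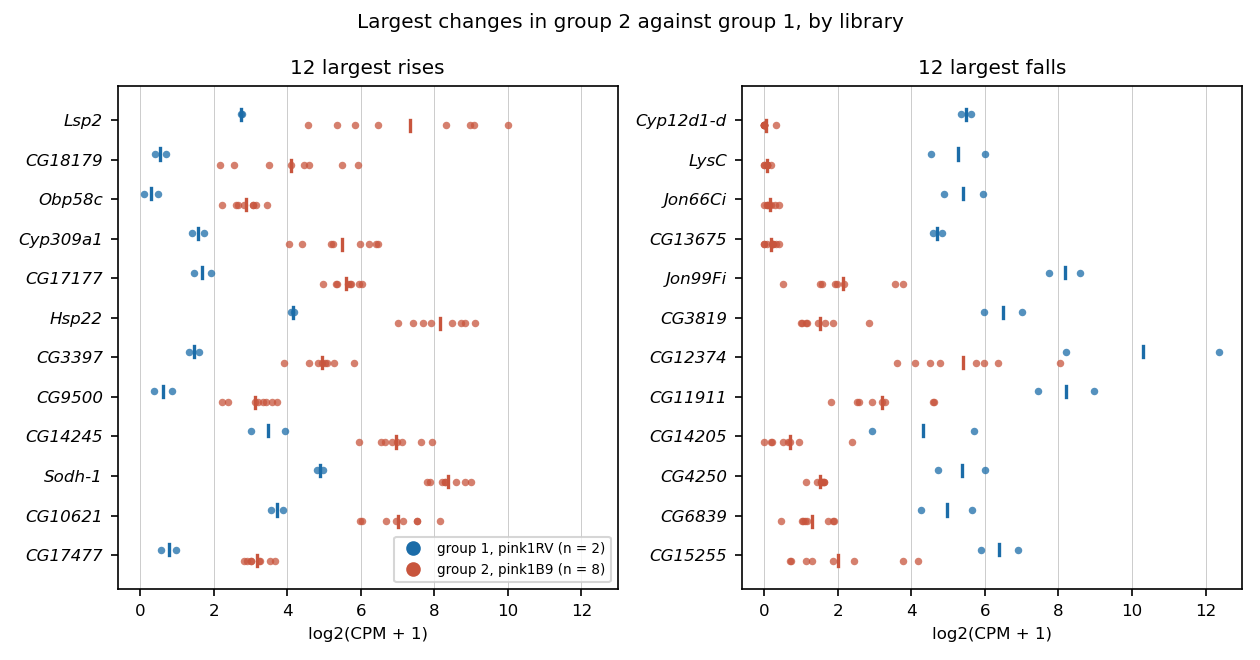
Level of the 12 largest rises (left) and falls (right) among called genes with at least 5 CPM on average and no overlap between the groups, as log2(CPM + 1) on the horizontal axis. Each point is a library, vertical ticks are group means, blue is group 1 (n = 2) and red is group 2 (n = 8). *Lsp2* spread from 22.7 to 1034 CPM among the mutants, while *LysC* and *Jon66Ci* lay near 0 in all 8.

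The largest fall by fitted size among the genes plotted was that of *Cyp12d1-d*, one of 2 nearly identical cytochrome P450 genes. It was at 1114 and 1341 counts in the controls, at 6 counts in GC055044 and at 0 counts in the other 7 mutant libraries (log2 fold change −9.98, standard error 1.63, edgeR adjusted p = 1.2e-04, DESeq2 adjusted p = 0.17). Its twin *Cyp12d1-p* was at 44.1 and 27.8 CPM in the controls and at 12.5 to 69.2 CPM with a median of 27.6 CPM in group 2, with the groups overlapping (log2 fold change −0.21, edgeR adjusted p = 0.76). *Cyp12d1-d* was thus at or near 0 in the 8 mutant pools, in which its copy was read at 12.5 to 69.2 CPM, on both sides of the controls. The fitted size of such a change depends on the prior count.

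Further falls of the same clear kind were found in genes that carry only a CG number. *CG13675* was at 27.4 and 22.9 CPM in the controls and at 0 to 0.33 CPM with a median of 0.168 CPM in group 2 (log2 fold change −7.32, standard error 0.69, edgeR adjusted p = 2.1e-08). *CG4250* was at 25.5 and 63.6 CPM in the controls and at 1.2 to 2.06 CPM with a median of 1.94 CPM in group 2 (−4.59, standard error 0.34, edgeR adjusted p = 8.8e-11). *CG13946* was at 23.2 and 6.99 CPM and at 0.25 to 1.23 CPM with a median of 0.53 CPM (−4.72, edgeR adjusted p = 4.6e-08). The neighbours *CG3819* and *CG6839* on chromosome 3L fell together, with log2 fold changes of −5.44 and −4.39 (edgeR adjusted p = 5.2e-09 and 6.3e-07). These 5 genes were in the stable set.

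Some of the largest falls rested on control GC055041. *CG12374* was at 293 CPM in control GC055040 and at 5306 CPM in GC055041, against 11.3 to 262 CPM with a median of 40 CPM in group 2, and its call (log2 fold change −5.39, edgeR adjusted p = 6.4e-04) was lost without GC055041 (adjusted p = 0.38). *CG14205* and *CG15255*, with log2 fold changes of −5.01 and −4.08, lost theirs in the same way (edgeR adjusted p = 0.17 and 0.091). *CG11911* kept it: its controls were at 174 and 499.6 CPM and group 2 was at 2.5 to 23.6 CPM with a median of 7.36 CPM (log2 fold change −5.02, standard error 0.74, edgeR adjusted p = 3.45e-05, 0.0050 without GC055041).

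A fall of smaller size and very small spread was that of *MsrA*. It encodes a methionine sulfoxide reductase, an enzyme that repairs oxidized methionine in proteins. The controls were at 230.3 and 202 CPM and the mutants at 47 to 59.4 CPM (median 54.3 CPM), a log2 fold change of −2.01 (standard error 0.12, edgeR adjusted p = 1.9e-12), and the gene was in the stable set. Of 19 antioxidant and redox repair genes it was 1 of 2 that fell (10.5%, against 9.52% over all genes). The other was *Keap1*, which encodes an inhibitor of the antioxidant response (log2 fold change −0.38, edgeR adjusted p = 0.044, lost without either control). *PHGPx*, a glutathione peroxidase gene, rose from 180 and 206 CPM to 282 to 716 CPM with a median of 430.3 CPM (log2 fold change 1.22, edgeR adjusted p = 0.0097). This call was lost without control GC055040 and without GC055041. The list did not hold the peroxiredoxin gene *Prx2540-2*, which rose and was in the stable set. Its mean was 24.5 CPM in the controls and 122.6 CPM in group 2 (log2 fold change 2.32, edgeR adjusted p = 5.4e-06). Other such genes outside the list were not counted.

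Among the largest rises were those of *Obp58c*, *CG17177* and *CG3397*. *Obp58c*, which encodes an odorant-binding protein, a small carrier of hydrophobic ligands, was at 0.40 and 0.072 CPM in the controls and at 3.71 to 9.86 CPM in group 2 (median 6.69 CPM), a log2 fold change of 4.77 (standard error 0.43, edgeR adjusted p = 5.8e-09). *CG17177* was at 2.77 and 1.74 CPM in the controls and at 30.4 to 64.5 CPM with a median of 50.1 CPM in group 2 (4.42, standard error 0.33, edgeR adjusted p = 8.8e-11). *CG3397* was at 2.01 and 1.48 CPM and at 14 to 54.8 CPM with a median of 30.7 CPM (4.16, standard error 0.42, edgeR adjusted p = 7.0e-08). In each the lowest mutant library lay several fold above the higher control, and all 3 were in the stable set.

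Of 43 tested odorant-binding protein genes 4 rose and 1 fell, shares of 9.3% and 2.33% where 10.7% and 9.52% of all genes did, so that the family as a whole did not exceed the background. *Obp58d*, which lies within 10 kb of *Obp58c* on chromosome 2R, was at 1 and 0 counts in the controls and at 4 to 28 counts in group 2 (edgeR adjusted p = 2.2e-04). *Obp51a*, expressed in the male reproductive tract, was at 17.5 and 28.8 CPM in the controls and at 92.4 to 185 CPM with a median of 121 CPM in group 2 (log2 fold change 2.48, standard error 0.28, edgeR adjusted p = 6.3e-07). *Obp56a* went down, from 77.6 and 26.2 CPM to 3.11 to 9.38 CPM with a median of 5.23 CPM (−3.14, standard error 0.46, edgeR adjusted p = 2.1e-05). These 4 genes were in the stable set.

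A metabolic enzyme was among the large rises. *Sodh-1*, a sorbitol dehydrogenase gene, was at 30.1 and 27.1 CPM in the controls and at 224 to 505 CPM in group 2 (median 314 CPM; log2 fold change 3.57, standard error 0.45, edgeR adjusted p = 3.1e-06). *CG10621* rose from 10.7 and 13.8 CPM to 61.9 to 283 CPM with a median of 132 CPM (3.54, edgeR adjusted p = 9.1e-05). The rises of *CG14245* (3.65), *CG9500* (3.87) and *CG17477* (3.50) were of like size, with edgeR adjusted p-values from 1.2e-06 to 2.0e-05. All 5 were in the stable set. *Lsp2*, described below, and *CG18179* had larger fitted rises but were not in it. *CG18179* was at 0.32 and 0.62 CPM in the controls and at 3.53 to 60.1 CPM with a median of 18.6 CPM in group 2 (log2 fold change 5.57, standard error 1.37, edgeR adjusted p = 0.0053), and its adjusted p was 0.078 without control GC055040 and 0.081 without GC055041.

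The genes with the smallest p among those that rose included several of modest size. *TfIIFbeta*, a subunit of a general transcription factor of RNA polymerase II, was at 14.9 and 12.7 CPM in the controls and at 33.5 to 42.8 CPM with a median of 35.8 CPM in group 2 (log2 fold change 1.41, standard error 0.15, edgeR adjusted p = 2.0e-07). *UK114* was at 18.9 and 21.2 CPM and at 62.7 to 105 CPM with a median of 73.3 CPM (1.95, edgeR adjusted p = 2.9e-07), and *CG1271* at 11 and 12.6 CPM and at 28.4 to 41.1 CPM with a median of 35 CPM (1.56, edgeR adjusted p = 1.4e-07). *CG18278* was at 7 and 15 counts in the controls and at 32 to 127 counts in group 2 (3.49, edgeR adjusted p = 2.4e-07). All 4 were without overlap between the groups and in the stable set.

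The gene *w*, which encodes a transporter of eye pigment precursors and is named in both genotypes, rose as well. It was at 5.71 and 4.89 CPM in the controls and at 20.5 to 31.7 CPM in group 2 (median 26.1 CPM), a log2 fold change of 2.29 (standard error 0.23, edgeR adjusted p = 8.8e-08). Its partner in the transport of red pigment precursors, *bw*, went the other way, from 17.5 and 12 CPM to 4.23 to 6.59 CPM with a median of 4.84 CPM (−1.56, standard error 0.21, edgeR adjusted p = 8.9e-06). Both were in the stable set, and of the 20 genes of eye pigment and pigment granules they were the only such members. Of the others *or* rose (log2 fold change 0.62) and *lt* fell (−0.40), and both calls were lost without control GC055041 (edgeR adjusted p = 0.13 and 0.16).

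The light-sensing genes of the eye fell. Of 34 genes of rhodopsins and phototransduction 16 fell (47.1%, against 9.52% over all genes) and none rose, with a median log2 fold change of −0.84, and 17 had all mutant libraries below both controls (13.3% over all genes). Their summed level was 18520 and 10040 CPM in the controls and 3707 to 8995 CPM in group 2. *trpl*, a cation channel opened by light, was at 623 and 414 CPM in the controls and at 118 to 214 CPM in group 2 (median 174 CPM; log2 fold change −1.62, standard error 0.24, edgeR adjusted p = 3.2e-05). The opsin genes *Rh4* and *Rh6*, of the ultraviolet-sensing R7 cells and the green-sensing R8 cells, had log2 fold changes of −1.54 and −2.11 (edgeR adjusted p = 4.0e-05 and 2.4e-04). *chp*, a surface protein of the light-sensing rhabdomere, was at 327 and 396 CPM in the controls and at 52.7 to 194 CPM with a median of 110.1 CPM in group 2 (−1.68, edgeR adjusted p = 2.7e-04). These 4 genes and *ninaG* (−1.69), an enzyme of chromophore synthesis, were in the stable set. Without control GC055040, the one with the higher sum, 6 genes fell, and without GC055041 11 fell.

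**Figure D4:**
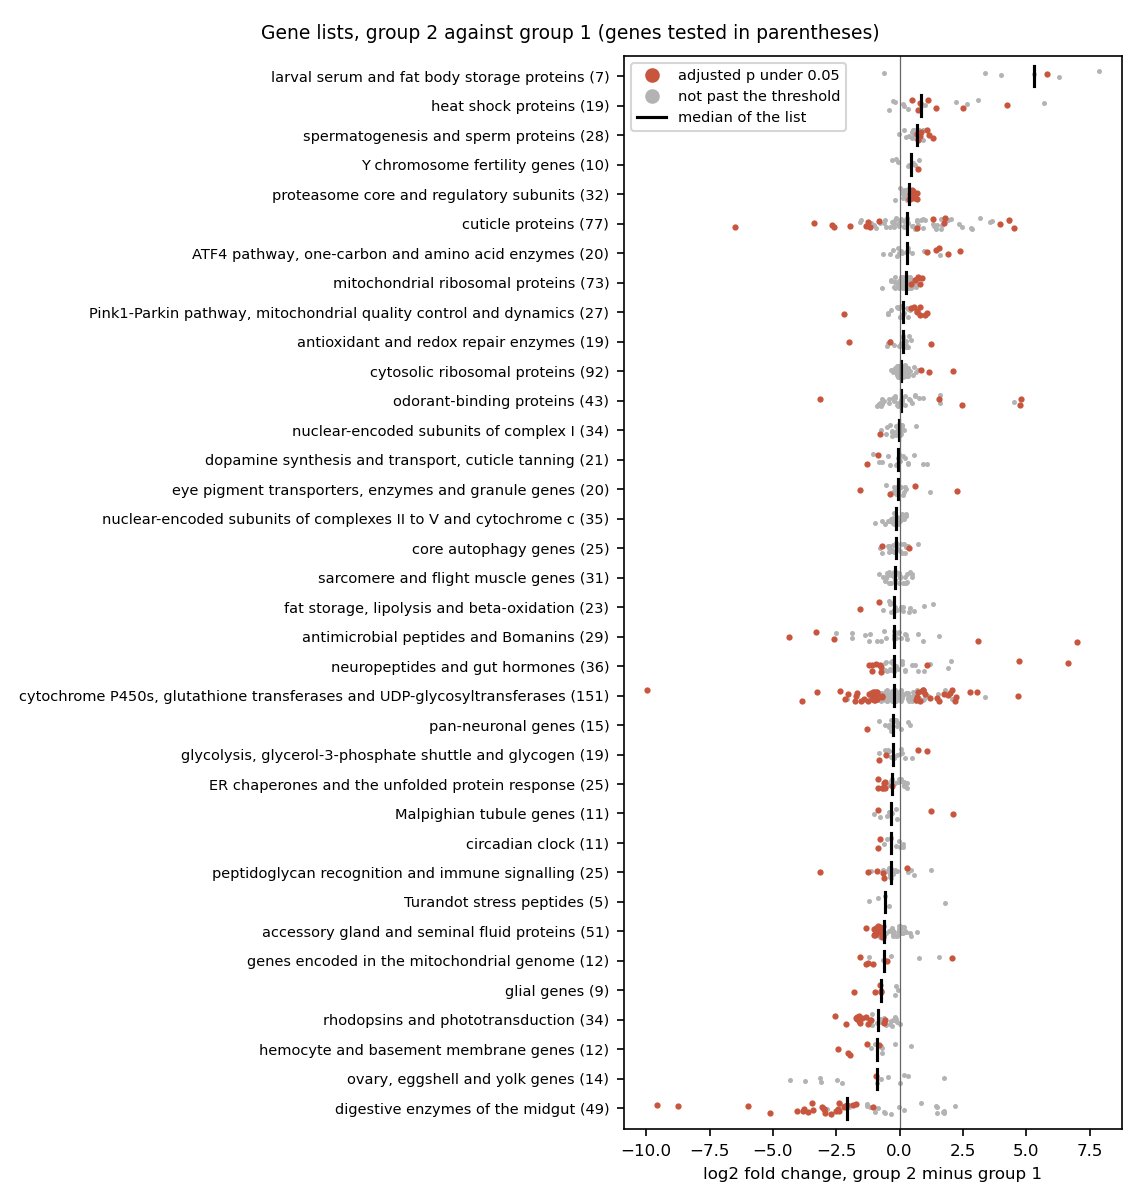
Log2 fold change in group 2 against group 1 (horizontal axis) of every tested member of 36 gene lists, with the number tested in parentheses. Red points passed the threshold, grey points did not, and black ticks are list medians, which ran from −2.06 for midgut enzymes to 5.31 for larval storage proteins.

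Genes of protein folding and protein breakdown moved in different directions. Of 19 heat shock genes 7 rose (36.8%, against 10.7% over all genes) and none fell, with a median log2 fold change of 0.83. *Hsp22*, a small heat shock protein of the mitochondrial matrix, was at 17.1 and 16.2 CPM in the controls and at 129 to 545 CPM in group 2 (median 298 CPM; log2 fold change 4.24, standard error 0.75, edgeR adjusted p = 2.8e-04). *CG4456*, whose annotated span on chromosome 3L holds that of *Hsp22*, so that reads of the pair may be shared, rose from 44.3 and 35.4 CPM to 69.9 to 121 CPM with a median of 84.4 CPM (1.13, edgeR adjusted p = 1.7e-04). Both were in the stable set. *DnaJ-1* and *Hsp68*, cytosolic chaperones of the Hsp40 and Hsp70 kinds, had log2 fold changes of 0.48 and 0.71, and their calls were lost without control GC055041 (edgeR adjusted p = 0.19 and 0.27). The count of 7 became 3 without GC055040, 2 without GC055041 and 3 with groups 1 and 2 alone.

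The proteasome, which degrades ubiquitinated proteins, rose by a small amount in many of its subunits. Of 32 genes 13 rose (40.6%, against 10.7% over all genes) and none fell, with a median log2 fold change of 0.36, and in 18 all mutant libraries lay above both controls (11.1% over all genes). *Prosbeta6* was at 101 and 101 CPM in the controls and at 132 to 203 CPM with a median of 158 CPM in group 2 (log2 fold change 0.68, standard error 0.15, edgeR adjusted p = 0.0020), and it was the member of the list in the stable set. *Prosalpha5*, *Rpn7* and *Prosbeta3* had log2 fold changes of 0.50, 0.55 and 0.51. The list did not hold *Prosbeta5R2*, a testis paralog of a core subunit gene, which rose more and was in the stable set. Its mean was 17.9 CPM in the controls and 64.5 CPM in group 2 (log2 fold change 1.85, standard error 0.21, edgeR adjusted p = 6.3e-07). The count moved strongly with single libraries: 3 genes rose without control GC055040, 1 without GC055041, 8 without GC055045, 5 without GC055046 and 6 without GC055049, and 4 with groups 1 and 2 alone.

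Chaperones and stress genes of the endoplasmic reticulum (ER) numbered 25, of which 8 fell (32%, against 9.52% over all genes) and none rose, with a median log2 fold change of −0.29. The protein disulfide isomerase gene *Pdi* was at 1067 and 744 CPM in the controls and at 408 to 644 CPM with a median of 472 CPM in group 2 (log2 fold change −0.84, standard error 0.18, edgeR adjusted p = 0.0019). *ERp60*, of the same family, and the ER chaperone gene *Gp93* had log2 fold changes of −0.59 and −0.66 (edgeR adjusted p = 0.0017 and 0.015). *wbl*, another thioredoxin-fold protein of the ER, was at 67.7 CPM in control GC055040 and at 27.9 CPM in GC055041, with group 2 at 20.3 to 33.8 CPM with a median of 27 CPM on both sides of the latter (log2 fold change −0.84, edgeR adjusted p = 0.015). All 4 calls were lost without GC055040 (edgeR adjusted p from 0.15 to 0.95), where 1 of the 25 genes fell. Without GC055041 5 of the 25 genes fell, without GC055047 5, and with groups 1 and 2 alone 2.

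Of 20 genes of the ATF4 pathway, one-carbon metabolism and amino acid enzymes, which respond to mitochondrial stress in several species, 5 rose (25%, against 10.7% over all genes) and none fell. *pug*, a folate enzyme, was at 50.5 and 94.7 CPM in the controls and at 117 to 353 CPM in group 2 (median 294 CPM; log2 fold change 1.89, standard error 0.42, edgeR adjusted p = 0.0020). *Pepck1*, of gluconeogenesis, rose from 173 and 119.6 CPM to 232 to 756 CPM with a median of 425 CPM (1.54, edgeR adjusted p = 6.9e-04), *Sardh*, a sarcosine dehydrogenase, had a log2 fold change of 2.39 (edgeR adjusted p = 0.0030), and *Ldh*, lactate dehydrogenase, one of 1.08 (edgeR adjusted p = 0.0017). No overlap was seen in these 4 genes. Each was called in 9 of the 10 fits that left out a library, *pug* and *Sardh* losing the call without control GC055040 (adjusted p = 0.071 and 0.060) and *Pepck1* and *Ldh* without GC055041 (adjusted p = 0.060 and 0.062). *Thor*, which encodes the translation inhibitor 4E-BP and is a known target of ATF4, was at 195 and 356 CPM in the controls and at 244 to 346 CPM with a median of 279 CPM in group 2, with no call (log2 fold change 0.06, edgeR adjusted p = 0.88). The list does not hold all one-carbon enzymes. Outside it, the folate enzyme gene *Mthfs* rose and was in the stable set (log2 fold change 1.89, standard error 0.26, edgeR adjusted p = 1.2e-05). Other such genes outside the list were not counted.

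Cytochrome P450s, glutathione transferases and UDP-glycosyltransferases, the enzymes that modify and conjugate foreign compounds and hormones, changed in both directions. Of 151 genes 20 rose and 25 fell, the first share (13.2%) near the 10.7% of all genes and the second above the 9.52% of all genes, and 7 and 8 of these were in the stable set. *Cyp309a1* was at 1.65 and 2.35 CPM in the controls and at 15.6 to 88.2 CPM in group 2 (median 49.5 CPM; log2 fold change 4.69, standard error 0.71, edgeR adjusted p = 4.3e-05), and its neighbour *Cyp309a2* rose from 15.2 and 14.4 CPM to 34.8 to 55.1 CPM (edgeR adjusted p = 6.1e-06). *Cyp4aa1* fell from 18.7 and 47.4 CPM to 3.47 to 8.44 CPM with a median of 6.67 CPM (−2.34, edgeR adjusted p = 1.7e-06). *Cyp4g15*, known for expression in the nervous system, had a log2 fold change of −1.74 (edgeR adjusted p = 1.4e-05), which was lost without control GC055041 (adjusted p = 0.22). Without GC055040 13 genes rose and 18 fell, and without GC055041 9 rose and 9 fell.

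Of 29 antimicrobial peptide and Bomanin genes 2 rose and 3 fell, shares of 6.9% and 10.3% near or below those over all genes (10.7% and 9.52%). *Drsl4*, of the drosomycin family, was at 4.7 and 3.8 CPM in the controls and at 25.7 to 54.7 CPM in group 2 (median 31.6 CPM; log2 fold change 3.09, standard error 0.52, edgeR adjusted p = 1.4e-04). *IBIN*, a short peptide induced on infection, was at 1 and 0 counts in the controls and at 12 to 100 counts in group 2 (edgeR adjusted p = 0.0014, 0.057 without control GC055041). *AttD*, an attacin, was at 39 and 25 counts in the controls and at 0 to 3 counts in group 2 (edgeR adjusted p = 0.0015), and *Def*, the defensin gene, fell from 7.5 and 21.1 CPM to 0.46 to 3.03 CPM with a median of 1.51 CPM (−3.29, edgeR adjusted p = 0.0019, 0.15 without GC055041). *Drsl4* and *AttD* were in the stable set. *Drs* itself, the antifungal drosomycin, was at 26.2 and 81.8 CPM in the controls and at 7.61 to 70.9 CPM with a median of 31.6 CPM in group 2, with no call.

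Of 25 genes of peptidoglycan recognition and immune signalling 1 rose and 5 fell (20%, against 9.52% over all genes). *imd*, the adaptor of the pathway against gram-negative bacteria, was at 23.9 and 22.1 CPM in the controls and at 5.4 to 13.5 CPM with a median of 9.81 CPM in group 2 (log2 fold change −1.23, standard error 0.31, edgeR adjusted p = 0.0070). *dl*, a transcription factor of the Toll pathway, was at 98.2 and 94 CPM and at 47.5 to 73.6 CPM with a median of 59 CPM (−0.67, edgeR adjusted p = 0.010). Neither overlapped between groups, and neither was called without GC055040 (adjusted p = 0.078 and 0.097) or without GC055041 (0.078 and 0.11). In the list 1 gene fell without GC055040, none without GC055041 and 9 without group 4 library GC055057. Of 12 hemocyte and basement membrane genes 5 fell (41.7%), among them *Hml* (log2 fold change −2.44) and the scavenger receptor gene *Sr-CI* (−1.95), and none had all mutants below both controls. The sum over the list was 349.8 CPM in GC055040, 1749 CPM in GC055041 and 291.2 to 1002 CPM in group 2, and without GC055041 no gene was called and the median log2 fold change turned from −0.90 to 0.28. Without group 2 library GC055044 8 genes fell.

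Pan-neuronal genes showed few calls (6.67% fell, against 9.52% over all genes), while a larger share of the glial genes fell. Of 15 pan-neuronal genes *VGlut*, the transporter that loads glutamate into synaptic vesicles, was the only one called (55.2 and 53.1 CPM in the controls, 7.64 to 34.2 CPM with a median of 22.9 CPM in group 2, log2 fold change −1.29, edgeR adjusted p = 0.049). This call was present in 2 of the 10 fits that left out a library. *ple*, tyrosine hydroxylase of dopamine synthesis, was at 47.6 and 79.1 CPM in the controls and at 46 to 207 CPM with a median of 115.3 CPM in group 2, with no call (edgeR adjusted p = 0.24). Of 9 glial genes 5 fell (55.6%, against 9.52% over all genes), such as *repo*, the transcription factor that defines glia (log2 fold change −0.96, edgeR adjusted p = 0.0092), and none was called without control GC055041, 2 without GC055045 and GC055049 each, and 3 without GC055042. Of 11 clock genes *per* and *vri* fell (18.2%, against 9.52% over all genes), with log2 fold changes of −0.77 and −0.83 (edgeR adjusted p = 0.010 and 0.016). Without control GC055040 neither was called (adjusted p = 0.30 and 0.13), and without GC055041 *vri* was not (adjusted p = 0.12). The time of day at which flies were collected was not given.

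Of 36 genes of peptide hormones of gut and brain 3 rose and 7 fell, shares of 8.33% and 19.4% against 10.7% and 9.52% over all genes. *AstCC*, a relative of allatostatin C, was at 5 and 3 counts in the controls and at 17 to 135 counts in group 2 (log2 fold change 4.72, standard error 0.84, edgeR adjusted p = 2.7e-04), and it was in the stable set. *AstC*, of the same family, fell from 32.9 and 25.9 CPM to a median of 13.1 CPM, without overlap (−1.11, edgeR adjusted p = 0.0019, 0.074 without control GC055040). *Tk* and *AstA*, tachykinin and allatostatin A of enteroendocrine cells and neurons, had log2 fold changes of −1.10 and −0.77, and without GC055040 none of the 36 genes fell.

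The male germline is where flies without Pink1 fail to make mature sperm. Of 28 genes of spermatogenesis and sperm 7 rose (25%, against 10.7% over all genes) and none fell, with a median log2 fold change of 0.69. *tomb* and *can*, testis regulators of the meiotic gene programme, had log2 fold changes of 1.34 and 1.17 (edgeR adjusted p = 0.0020 and 0.0044). *tomb* was at 3.45 and 2.61 CPM in the controls and at 4.53 to 11.2 CPM with a median of 7.93 CPM in group 2, without overlap. *Mst77F*, a sperm chromatin protein, was at 589 and 550.0 CPM and at 561 to 1048 CPM with a median of 794 CPM, with no call (log2 fold change 0.50, edgeR adjusted p = 0.088). The count of rises was 3 without control GC055040, 0 without GC055041 and 19 without group 2 library GC055044, which had the lowest sum of the list. Of 10 Y-linked fertility genes 1 rose, *ORY* (0.72, edgeR adjusted p = 0.035), a share of 10% where 10.7% of all genes rose. Its call was lost without either control (adjusted p = 0.11 without GC055040 and 0.29 without GC055041), without GC055046 or GC055049, and with groups 1 and 2 alone. The axonemal dynein gene *kl-5* was at 27.4 and 34.1 CPM in the controls and at 29 to 79.6 CPM with a median of 50.9 CPM in group 2 (edgeR adjusted p = 0.089).

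Of 51 genes of the accessory gland and seminal fluid 16 fell (31.4%, against 9.52% over all genes) and none rose, with a median log2 fold change of −0.60. *antr*, which is needed for the long-term response of mated females, was at 79.1 and 39.3 CPM in the controls and at 17.1 to 29.4 CPM with a median of 23.6 CPM in group 2 (log2 fold change −1.33, standard error 0.22, edgeR adjusted p = 1.2e-04). *lectin-46Cb* and *lectin-46Ca*, of the same protein network, had log2 fold changes of −0.96 and −0.85. Summed levels were 12460 CPM in GC055040, 8881 CPM in GC055041 and 5102 to 10800 CPM in group 2. None of the 16 calls was present without GC055040, where *antr* had an edgeR adjusted p of 0.10, and 14 genes fell without GC055041.

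The flight muscle, in which loss of Pink1 is best known, gave no call. None of 31 sarcomere and flight muscle genes passed in edgeR, DESeq2 or limma-voom, and 5 had an unadjusted p under 0.05 in edgeR. Without group 2 library GC055044 2 of them fell, and without group 4 library GC055057 1 fell. *Act88F* was at 155 to 2723 CPM in group 2 (median 819 CPM), between its controls at 66.8 and 2929 CPM. The median log2 fold change of the list was −0.18, and it was −0.55 without control GC055040 and 0.73 without GC055041. The 2 controls thus spanned most of the range of the mutants, and a p that misses the threshold does not show that these genes did not differ. Of 19 genes of glycolysis 2 rose and 2 fell, shares of 10.5% each against 10.7% and 9.52% over all genes. The median log2 fold change of this list was −0.25, and it was −0.73 without GC055040 and 0.73 without GC055041. *Hex-A* and *Treh*, hexokinase and trehalase, fell by 0.80 and 0.53 on the log2 scale (edgeR adjusted p = 0.018 and 0.026, 0.74 and 0.55 without GC055041).

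*Lsp2*, the gene of the larval storage protein hexamerin 2, showed the largest fitted rise among called genes with no overlap between the groups and at least 5 CPM on average, and it varied widely among pools. It was at 5.78 and 5.65 CPM in the controls and at 22.7 to 1034 CPM in group 2, with a median of 204 CPM (log2 fold change 5.83, standard error 1.84, edgeR adjusted p = 0.026, 0.15 without GC055040 and 0.22 without GC055041). No other gene of the list passed in edgeR, and the list also held *to* (takeout), which is not a storage protein gene. Storage proteins feed the pupa. *Fbp1*, the receptor of these proteins, was at 0.61 and 0.87 CPM in the controls and at 0.55 to 873 CPM with a median of 33.8 CPM in group 2. *Fbp2* ran from 0.59 to 411 CPM with a median of 22.5 CPM and *Lsp1beta* from 5.17 to 174 CPM with a median of 21.4 CPM in group 2, against 0.90 and 1.38 CPM and 1.83 and 6.84 CPM in the controls. The summed level of the 7 genes was highest in GC055045 (2775 CPM), and it was 144.9 CPM in the lowest mutant library and 147 CPM in control GC055041. As this sum includes *to*, it does not measure storage protein genes alone. DESeq2 called 6 of the 7.

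Among the mutants themselves, 251 of 10747 genes with at least 5 CPM (2.34%) had a standard deviation above 1 in log2(CPM + 1), against a median of 0.28. The 10 most variable genes fell into 3 patterns. *Acp1*, *CG8736*, *CG12998*, *Vajk3*, *CG5172* and *Cpr97Ea*, several of which encode structural proteins of the cuticle, were low in GC055042, GC055048 and GC055049 and high in the other 5 mutant libraries. *Acp1* ran from 3.4 to 1719 CPM with a median of 812 CPM in group 2 and was at 19.5 CPM in control GC055040 and at 526.1 CPM in GC055041, so that the 2 controls differed in the direction in which the mutants did. *Fbp1* and *Lsp1gamma*, of the larval storage list, were highest in GC055045 and GC055046. The third pattern was of genes at 0 in some pools only. *CG46429* was at 0 CPM in some mutant libraries and at up to 93.2 CPM in others. *Unc-115b* and the overlapping *p24-2*, of an actin-binding and a cargo receptor protein, were at 0 counts in GC055046 and at 1351 to 9258 and 330 to 2735 counts in the other 7, against 64 and 10 and 0 and 10 counts in the controls (edgeR adjusted p = 0.0014 and 6.7e-04, limma-voom adjusted p = 0.30 and 0.39).

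**Figure D5:**
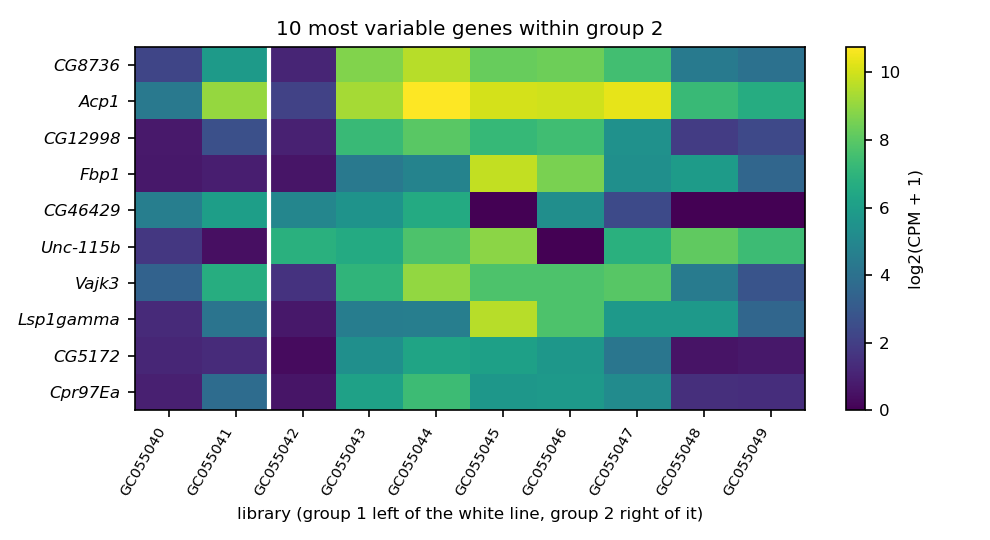
Level of the 10 genes with the largest spread within group 2, as log2(CPM + 1) by colour, for the 2 controls (left of the white line) and the 8 mutant libraries (right). *Unc-115b* was at 0 in GC055046, and the cuticle genes such as *Acp1* were low in GC055042, GC055048, GC055049 and control GC055040.

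Of 77 tested cuticle genes 7 rose and 9 fell, shares of 9.09% and 11.7% near those over all genes (10.7% and 9.52%). Without control GC055040 3 rose and 7 fell, without GC055041 4 and 6. *TwdlD*, a Tweedle cuticle protein gene, was at 16 and 144 counts in the controls and at 0 to 2 counts in group 2 (edgeR adjusted p = 1.2e-06), and it was in the stable set. *Cpr66Cb* fell from 5.67 and 1.92 CPM to 0 to 0.58 CPM with a median of 0.408 CPM (log2 fold change −3.39, edgeR adjusted p = 2.3e-04, 0.051 without control GC055040).

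The remaining lists are set against shares over all genes of 10.7% higher and 9.52% lower. The shares that fell were 8.7% for fat storage and use, 4% for autophagy, 9.52% for dopamine and tanning and 7.14% for ovary and yolk. Rises made up 4% of the autophagy genes and 3.26% of the cytosolic ribosomal protein genes. Of 11 genes of the Malpighian tubule, the excretory organ, 2 rose (18.2%) and 1 fell (9.09%). *Uro*, urate oxidase, was at 27 and 10.2 CPM in the controls and at 59.1 to 126 CPM with a median of 72.3 CPM in group 2, without overlap (log2 fold change 2.12, standard error 0.51, edgeR adjusted p = 0.0045, 0.18 without control GC055041). Of 23 genes of fat storage and use 2 fell, among them the perilipin gene *Lsd-1* of the lipid droplet, at 153 and 378 CPM in the controls and at 63.7 to 132 CPM with a median of 84.3 CPM in group 2 (−1.58, edgeR adjusted p = 2.9e-04, 0.24 without GC055041). Of 25 autophagy genes *Pi3K59F* fell (−0.70) and *Atg14* rose (0.38), and both calls were lost without GC055041. Of 92 genes of cytosolic ribosomal proteins 3 rose, led by *RpS28a* (2.12, edgeR adjusted p = 0.0010, 0.058 without GC055041). Of 21 genes of dopamine and cuticle tanning 2 fell, led by *b* of beta-alanine synthesis (−1.28, edgeR adjusted p = 0.0070, 0.54 without GC055041). Of 14 ovary and yolk genes 1 fell, *grk* (−0.92, edgeR adjusted p = 6.7e-04, 0.080 without control GC055040), and 7 fell without group 4 library GC055057. None of 5 Turandot stress peptide genes was called in edgeR, DESeq2 or limma-voom, and 1 had an unadjusted p under 0.05 in edgeR.

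Genes silent in the mutants were few. With 10 or more counts in both controls, 4 genes had 0 counts in all 8 mutant libraries. *CG43667* had 54 and 43 counts in the controls and was at least 88.7-fold lower in group 2, taking 3 counts over the group as the limit. *Mst77Y-4*, a Y-linked copy of *Mst77F* among near-identical copies, had 37 and 30 counts and was at least 61.2-fold lower. *CR43214* and *CR43215* had the same 26 and 42 counts, so that they count as 1 signal, and were at least 60.1-fold lower. *CG43667* was in the stable set, while *Mst77Y-4*, *CR43214* and *CR43215* were not called without either control (edgeR adjusted p from 0.053 to 0.16). No gene was at 0 in both controls and at 10 or more counts in all mutants.

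The called genes were spread unevenly over the chromosomes, at 22.3% of the genes tested on 2L, 21.7% on 2R, 22.7% on 3L and 19.4% on 3R. Over all genes the share was 20.2%. It was lower on the X chromosome, which carries *Pink1* (307 of 2083 genes), than on any of these arms, and on chromosome 4 it was 5.95%. The stable set held 1.01% of the genes tested on the X chromosome, against 2.71% over all genes. The cause of the lower share was not tested. Of the stable set, 21.6% (77 of 357 genes) had another of its members within 10 kb, and 11.7% of the other 12817 genes with a position had a member of the set as near. The 50 such pairs held 28 in which both genes changed in one direction, such as *Obp58c* with *Obp58d*, *Cyp309a1* with *Cyp309a2*, *LysC* with *LysP* and *CG3819* with *CG6839*. In the rest the 2 genes went opposite ways, such as *LysC* (−9.56) with *CG9119* (1.49) and *CG14245* (3.65) with *CG6403* (−3.35). With 217 rises and 140 falls in the set, many pairs share a direction without any link, and the share was not tested. Neighbouring genes can share reads, and *B9d2* and *tctn*, a pair in this set, had the same count in all 10 libraries.

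Groups 3 and 4 share the controls with group 2, so their differences from group 1 are no separate evidence. The mean level of *Pink1* was 54.1 CPM in group 2 (SD 6.16, n = 8), 58.5 CPM in group 3 (SD 6.37, n = 10) and 63.5 CPM in group 4 (SD 14.8, n = 10). Over 165 genes, which include *MsrA*, *Obp58c* and nearly all others named here, the lowest edgeR adjusted p was 0.22 in group 4 against group 2 and 1 in group 3 against group 2. A p that misses the threshold does not show that the groups are alike.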

How the data were processed

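RNA of pools of 5 whole male flies was extracted and made into stranded total RNA libraries (TruSeq, per the labels). Per the study's methods, reads were trimmed by fastp 0.23.4, quantified against BDGP6.46 transcripts by kallisto 0.44.0, summarised by tximport 1.26.1 and compared between groups by sleuth 0.30.1, while the submitters' processing notes name kallisto 0.45.0 and GRCh38. Estimated counts, 1 value for each gene and library, were deposited by the authors. They were whole numbers and were used as deposited. No source used here says whether they were scaled by transcript length.

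Genes were kept with filterByExpr, scaled by TMM and tested with edgeR 4.0.16 (R 4.3.3; robust quasi-likelihood F-test, 1 coefficient for each of the 4 groups over all 30 libraries, Benjamini-Hochberg adjustment over 13190 genes, threshold 0.05). All groups entered the fit because group 1 had 2 libraries. Standard errors were derived from the log2 fold change and its F value. The same contrast was also fitted with DESeq2 1.42.0 and limma-voom (limma 3.58.1), with other scalings and filters, with groups 1 and 2 alone, and without each library in turn. In fits with 1 control, that library was assumed to vary like the other groups. The steps were tested on simulated counts.

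Of the 36 gene lists (1222 genes) every symbol was found in the table. Members and lists were chosen with earlier results of these data known. Genes were named by a rule: *Pink1*; the 12 largest rises and falls among called genes with at least 5 CPM on average and no overlap; the 8 smallest p-values in each direction; up to 4 called members of a list with the smallest p; the 10 most variable genes within group 2; and genes at 0 in one group with at least 10 counts in each library of the other. *park*, *shf*, *Cyp12d1-p*, *LysB*, *LysD*, *LysE*, *Jon99Fii*, *Jon65Aiv*, *Jon66Cii*, *yip7*, *ninaG*, *elav*, *Act88F*, *TpnC4*, *fln*, *Thor*, *Drs*, *ple*, *Mst77F*, *kl-5*, *Fbp2*, *Lsp1beta*, *p24-2*, *CG40813*, *Cp38*, *B9d2* and *tctn* were named after their values were seen. An exact permutation test of 2 summed levels had been planned and is not reported, since their members were chosen with results known. Positions are those of BDGP6.54, in which 14105 of 14326 genes matched by symbol and 205 by synonym. Tables and figures were made in Python 3.11.15 (pandas 2.3.3, matplotlib 3.10.9).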

Additional observations from a re-analysis of the deposited data

Results flagged for a closer look

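Among 165 named genes, 9 had a group 2 library far from the other 7 by Dixon's criterion, and chance flags about 1 in 20 groups of values. In GC055044, *Cyp12d1-d* was at 0.25 CPM against 0 in the other 7 libraries, *LysC* at 0.12 CPM against 0 to 0.051 CPM, and *CG14205* at 4.2 CPM against 0 to 0.94 CPM. The first 2 of these rest on 6 and 3 counts. In GC055046, *Unc-115b* and the overlapping *p24-2* were at 0.0 CPM against 93.7 to 472 CPM and 27.1 to 113 CPM, *CG4250* was at 1.2 CPM against 1.68 to 2.06 CPM, and *mRpL20* at 8.75 CPM against 12.3 to 16.2 CPM. *LysD* was at 6.88 CPM in GC055043 against 42.5 to 142 CPM. The neuronal gene *elav* was at 21.1 CPM in GC055049 against 33.5 to 47.9 CPM. What set these libraries apart was not tested.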

How the results depend on the processing

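Of 2667 calls, 357 were present in both fits that left out a control, 782 only without GC055040, 278 only without GC055041 and 1250 in neither. Without control GC055040 and without control GC055041, which gave the lowest values of the fits that left out a library, 1268 and 689 genes were called (584 and 292 higher, 684 and 397 lower), against up to 3745 (2097 higher, 1648 lower) without group 2 library GC055044. Over the same fits, the genes also changed by more than 2-fold ranged from 550 to 1418. With groups 1 and 2 only, 1513 genes were called (700 higher, 813 lower). Without group 4 library GC055057 1961 genes were lower and 3568 were called in all. DESeq2 called 3301 genes (1913 higher, 1388 lower) and limma-voom 2917 (1413 higher, 1504 lower). Total counts without TMM moved the median log2 fold change of all genes to 0.06 and the share of higher genes from 52.9% to 59.8%. The log2 difference of summed midgut enzymes was −2.33 and ranged from −3.19 to −1.47 without the controls in turn, and that of the mitochondrially encoded genes was −1.08 and ranged from −1.6 to −0.55. Of the 139 named genes that were called, 49 lost their call without GC055040, 76 without GC055041, and 35 with groups 1 and 2 only. *bdl* and *eater* turned direction without GC055041: their log2 fold changes ranged from −1.28 to 0.039 and from −2.89 to 0.70 over the fits that left out a library. The cause of these differences was not tested. Fits with a minimum of 5 CPM or without mitochondrially encoded genes give no value for the genes they leave out. Groups 2 and 1 held no pairs by design. Groups 3 and 4 were siblings from the same parent pairs per the study, but the labels do not tie a library to a parent pair. Their libraries entered the fit as independent, so the spread behind each p rests in part on sibling pools treated as independent.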

Other observations

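Of the 13190 tested genes, 179 had the same count as another gene in all libraries of groups 1 and 2, among them 23 called genes, so that counts of called genes hold some signals more than once. *CG40813* on the X chromosome was at 0 counts in both controls and in 2 libraries of group 2, at 1 count in 2 others and at 96 to 148 counts in the remaining 4 (edgeR adjusted p = 0.12). Windows of 1 Mb with at least 30 tested genes were ranked by their share of stable set genes. The highest, from 22 Mb on chromosome 2R, held 16 such genes of 158 tested (10.1%), *Obp58c* among them, against 2.71% over all genes. Next came the windows from 15 Mb on 2R (9.28%), 26 Mb on 3R (8.14%) and 11 Mb on 3R (7.75%). As the highest was picked after ranking, its share is no test of that region.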
